A study of Mus musculus with 8 samples.

Results

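The genes described here are 34 endothelial and blood-brain barrier genes, a list set by name and found in full among the 20308 gene symbols of the count files. All 34 also passed edgeR's filter on low counts, which kept 13407 genes. They were measured in RNA of cells that were pulled from brain with magnetic beads against CD11b, an integrin chain on the surface of myeloid cells such as microglia, after perfusion of the mice and removal of myelin on Percoll. The cells came from the right brain hemisphere of 4 control and 4 CSF1 OE mice, all F1 offspring of C57Bl/6 and CD1 mice aged 14 or 15 days, with 1 library per mouse. The labels name the controls only as controls for CSF1 over-expression, without an allele. CSF1 OE mice carry transgenes of the TRE/tTA system by which a subset of GFAP+ cells makes the secreted form of CSF1, the ligand of the CSF1 receptor, so that the transgene is driven in cells other than those selected by the beads. The paper asked how microglia respond to CSF1, and the comparison described here is of what the endothelial genes in the same eluate did by mouse and by genotype.

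Endothelial cells line the blood vessels. In the brain they are sealed to each other by tight junctions made of claudin-5 and occludin, they carry dense sets of nutrient carriers and efflux pumps, and their barrier state is kept by Wnt signals of the surrounding tissue that act through beta-catenin and LEF1. Vascular growth is steered by VEGF and its receptors and by the angiopoietin receptor with its partners, while transcription factors of the ETS and SOX families hold the endothelial identity. None of the genes is a defining gene of microglia, although some of them, such as *Pecam1*, *Cd34*, *Slc2a1*, *Slc7a5* and *Slc16a1*, are also used by blood, glial or dividing cells.

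For a look at the regulatory sequence of genes that varied together, promoters were taken from RefSeq on GRCm38.p6, which held a window for 22 of the 34 genes. The 250 bases before the first listed start of each gene were searched on both strands for CAGGAA, a core bound by ETS factors, for CTTTGA, a core of TCF and LEF sites, and for AACAAT, a core of SOX sites. CAGGAA was found in 7 of the 22 windows and in 25.4% of the 27025 windows of all genes. CTTTGA was found in 4 and in 14.1%, and AACAAT in 3 and in 9.65%. In 16 of the 22 genes the bases after the start were found in a GENCODE M21 transcript of the gene. They were not for *Abcb1a*, with a CTTTGA match, or *Slco1a4*, with an AACAAT match. The *Abcb1a* window (chr5:8566841-8567090) lies away from the gene's GENCODE position (chr5:8660077-8748575). Such short matches are a description of the letters and not of binding. The windows of *Cldn5* (chr16:18776597-18776846, plus strand), the most abundant of the 34 genes per length, and of *Cd34* (chr1:194938571-194938820, plus strand), the 1 gene of the list that was higher in CSF1 OE mice, are printed 5′ to 3′ with matches in capitals, where a match on the other strand reads TTCCTG for the ETS core and ATTGTT for the SOX core. *Vwf*, with the lowest log2 fold change of the list, had no entry. Those of *Tek* (chr4:94739039-94739288, plus strand) and *Mfsd2a* (chr4:122961189-122961438, minus strand) were chosen later for the matches they hold.
Cldn5: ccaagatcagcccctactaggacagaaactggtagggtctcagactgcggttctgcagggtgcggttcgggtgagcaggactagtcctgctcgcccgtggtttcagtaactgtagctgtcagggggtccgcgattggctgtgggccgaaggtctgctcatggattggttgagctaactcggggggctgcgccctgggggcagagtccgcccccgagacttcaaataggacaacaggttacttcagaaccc
Cd34: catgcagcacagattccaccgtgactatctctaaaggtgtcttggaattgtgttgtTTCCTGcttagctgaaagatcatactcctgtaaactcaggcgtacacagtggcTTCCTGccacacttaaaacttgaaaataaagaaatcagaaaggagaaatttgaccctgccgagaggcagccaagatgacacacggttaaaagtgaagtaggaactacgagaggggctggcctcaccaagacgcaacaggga
Tek: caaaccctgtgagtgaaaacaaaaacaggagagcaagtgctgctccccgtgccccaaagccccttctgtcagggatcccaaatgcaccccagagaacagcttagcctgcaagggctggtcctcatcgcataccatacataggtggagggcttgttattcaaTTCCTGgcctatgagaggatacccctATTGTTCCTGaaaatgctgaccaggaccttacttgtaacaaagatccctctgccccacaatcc
Mfsd2a: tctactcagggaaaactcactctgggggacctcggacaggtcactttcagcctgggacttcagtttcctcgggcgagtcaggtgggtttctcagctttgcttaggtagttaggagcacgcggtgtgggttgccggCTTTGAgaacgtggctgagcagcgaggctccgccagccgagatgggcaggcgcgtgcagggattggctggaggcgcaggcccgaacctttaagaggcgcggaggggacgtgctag
The *Cldn5* window held none of the 3 motifs, *Cd34* held CAGGAA in 2 places, and *Mfsd2a* held CTTTGA in 1 place. *Tek* held CAGGAA in 2 places and AACAAT in 1 place, and the latter overlapped with 1 of the former.

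Total counts ran from 12908144 to 15475465 in control and from 12053259 to 14356532 in CSF1 OE libraries. Expression is given as CPM, the counts of a gene per 1000000 counts of the library after TMM scaling. It is a share of the RNA in each eluate, and in such bulk samples fewer cells of a type cannot be told apart from less RNA per cell. Values by mouse are listed in the order 1827, 1872, 1874 and 1934 for control and 1931, 1932, 1936 and 2019 for CSF1 OE, which are the animal numbers in the labels. *Csf1* itself had 282 ± 98.7 CPM over the control mice against 322 ± 107 CPM over the CSF1 OE mice (mean ± SD, n = 4 mice each here and elsewhere), and its values overlapped between the genotypes (log2 fold change 0.19, standard error 0.33, adjusted p = 0.796 from edgeR). The beads' own target *Itgam*, which encodes CD11b, was at 2387 ± 425 CPM over the control mice against 2565 ± 394 CPM over the CSF1 OE mice. The 18 homeostatic microglia genes together made 28766 to 50508 CPM for control against 37413 to 53049 CPM for CSF1 OE mice.

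The 34 endothelial genes were present in every library, with between 32 and 9012 counts per gene and mouse. Their summed level was 3122, 3208, 4604 and 4977 CPM in the control mice and 2819, 2962, 3667 and 1812 CPM in the CSF1 OE mice. The highest sums belonged to control mice 1874 and 1934 and the lowest to CSF1 OE mouse 2019, while CSF1 OE mouse 1936 lay above control mice 1827 and 1872, so the genotypes overlapped. Control mice averaged 3978 ± 951 CPM against 2815 ± 765 CPM for CSF1 OE mice.

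Of the 34 genes, 33 had a lower mean in CSF1 OE mice and 1, *Cd34*, a higher one. The median log2 fold change of CSF1 OE against control was -0.64, beside -0.034 over all genes tested, of which 55.2% were lower. With edgeR's quasi-likelihood test, adjusted over all 13407 genes, a call needed an adjusted p under 0.05 together with a ratio of CSF1 OE to control outside the span from 0.7 to its inverse, and 0.440% of all genes met this. By this rule 0 of the 34 were called lower, where 0.0522% of all genes tested were, and 1 was called higher, where 0.388% were. At an unadjusted p under 0.05, 12 of the 34 were lower, where 6.44% of all genes were, and 1 was higher, where 10.1% were. DESeq2 called 4 of the 34 lower, which were *Ptprb*, *Ly6c1*, *Vwf* and *Nos3*, where it called 0.939% of its 16835 genes lower, and it called *Cd34* higher, where 1.60% were. The genotypes did not overlap in 5 genes that were lower, where 3.45% of all genes separated in this direction, and in 1 that was higher, where 6.84% did. The 5 were *Eng*, *Sox17*, *Ly6c1*, *Vwf* and *Nos3*. With libraries scaled to the homeostatic microglia genes in place of TMM, all 5 overlapped and only *Cd34* did not (1.51% of all genes separated lower and 1.67% higher), and with total counts alone *Sox17* and *Ly6c1* overlapped. *Ly6c1* also overlapped with upper-quartile factors and with a filter of at least 10 counts in every library. So nearly every gene of the list had the same direction, but in 28 of the 34 the values of the mice overlapped between the genotypes. Control mouse 1934 and CSF1 OE mouse 2019 had the highest and the lowest summed level, and the size of the difference depended on them. Leaving out the highest control or the lowest CSF1 OE mouse shrinks such a difference by construction. Leaving out both was chosen after the values were seen, here and for the single genes below. Without any other single mouse the median ran from -0.59 (without control mouse 1874) to -0.86 (without CSF1 OE mouse 1936). The median log2 fold change was -0.44 without mouse 1934, -0.41 without mouse 2019 and -0.27 without both, with 32, 32 and 30 of the 34 genes lower and 0 called in each of these edgeR fits (6, 8 and 6 lower at an unadjusted p under 0.05). Over all genes the same fits called 10, 71 and 166. An unadjusted p under 0.05 in either direction was met by 2110 of 13451, 2339 of 13638 and 2859 of 13420 genes.

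**Figure D1:**
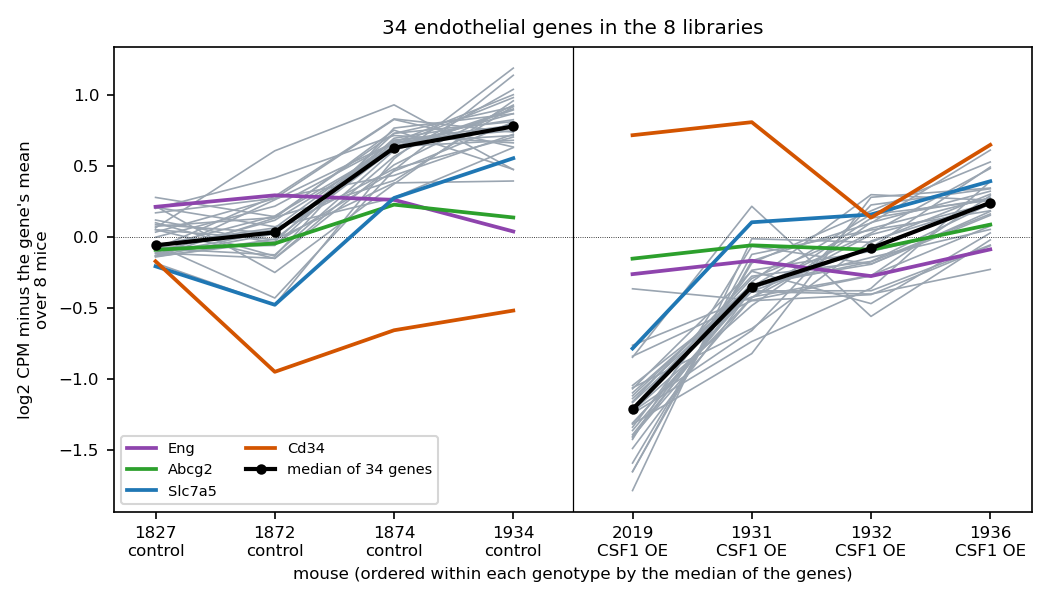
Log2 CPM of each of the 34 genes, minus the gene's mean over the 8 mice (vertical axis), for each mouse (horizontal axis, control on the left and CSF1 OE on the right), with 1 line per gene and the median of the genes in black. The lines run nearly parallel from -0.061 to 0.77 on the median of the control mice and from -1.20 to 0.24 on that of the CSF1 OE mice, and *Cd34*, *Eng*, *Abcg2* and *Slc7a5* are drawn in colour, of which *Cd34*, *Abcg2* and *Eng* depart most from the median of all 34 genes.

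Differences between mice of the same genotype were shared by nearly all of the genes. Measured from the mean of its own genotype, the median of the 34 genes was -0.38, -0.32, 0.26 and 0.41 on the log2 scale in the control mice and 0.023, 0.25, 0.55 and -0.84 in the CSF1 OE mice. Over all genes tested the same deviations stayed between -0.017 and 0.018, but TMM scaling keeps a median over all genes small largely by construction. Control mouse 1934 lay above its genotype's mean in 32 of the 34 genes, mouse 1874 likewise in 32, and mice 1827 and 1872 in only 2 each. In CSF1 OE mouse 1936 all 34 genes were above the mean of the genotype, whereas in mouse 2019 33 of 34 were below it.

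Single mice also held the extremes. Mouse 2019 had the lowest value of all 8 libraries in 31 of the 34 genes, which it had in 23.7% of all genes tested. Mouse 1934 had the highest in 26 of the 34, against 23.0% of all genes. The spread of a gene within a genotype had a median SD of 0.53 on the log2 scale, beside 0.22 for all genes tested. After each genotype was centred on its mean, the first principal component of the 34 genes held 91.0% of their variance, and 33 of the 34 loaded on it with the same sign. Over all genes tested the first component held 57.1%. The gene with the other sign was *Cd34*.

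For most of the genes the difference between the genotypes held less than 50% of the variation among the 8 mice. The share of the sum of squares of log2 CPM that lay between the genotypes had a median of 38.0% over the 34 genes and of 17.2% over all genes tested. It was highest in *Eng* (83.8%), *Cd34* (81.9%), *Vwf* (73.3%) and *Nos3* (70.3%). It was lowest in *Slc7a5* (0.651%), *Apcdd1* (11.8%) and *Mfsd2a* (12.9%).

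Among the junction and adhesion genes, all 5 were lower in CSF1 OE mice, 0 were called by edgeR and 2 had an unadjusted p under 0.05. *Cldn5*, at chr16:18776847-18778262 on GRCm38, encodes claudin-5, the main strand protein of the barrier's tight junctions. It had 132, 154, 209.7 and 217 CPM in the control mice and 98.3, 134, 156 and 50.0 CPM in the CSF1 OE mice. CSF1 OE mouse 2019 stood lowest, and 2 of the other 3 CSF1 OE mice reached into the range of the control mice (log2 fold change -0.70, standard error 0.32, adjusted p = 0.312 from edgeR). Without mice 1934 and 2019 the log2 fold change was -0.35. *Ocln*, at chr13:100496507-100552718, encodes occludin of the same junctions and had 24.7, 28.8, 40.4 and 41.6 CPM in the control mice and 19.4, 21.5, 27.4 and 15.3 CPM in the CSF1 OE mice, where only mouse 1936 exceeded a control value (log2 fold change -0.69, standard error 0.22, adjusted p = 0.175 from edgeR). The vascular cadherin gene *Cdh5* of the adherens junctions had a log2 fold change of -0.51 and the endothelial adhesion molecule *Esam* one of -0.71. *Pecam1*, which encodes CD31 of endothelium, platelets and leukocytes, had 110.05, 105, 138 and 139.6 CPM in the control mice and 78.0, 87.9, 129.9 and 82.5 CPM in the CSF1 OE mice. It moved less between mice than *Cldn5*, and in mouse 2019 it was not the lowest value (log2 fold change -0.38, standard error 0.18, adjusted p = 0.317 from edgeR).

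All 8 receptor and receptor-partner genes were lower, 0 were called and 3 had an unadjusted p under 0.05. The VEGF receptor genes *Kdr* and *Flt1* had log2 fold changes of -0.60 and -0.67, and the values of *Kdr* were 169, 122, 189 and 283 CPM in the control mice and 104, 156, 182 and 62.3 CPM in the CSF1 OE mice. Control mouse 1934 had by far the highest *Kdr* level, and control mouse 1872 lay below 2 of the CSF1 OE mice. The angiopoietin receptor gene *Tek* and its relative *Tie1* had nearly the same log2 fold changes, -0.72 and -0.71. *Ptprb*, which encodes the phosphatase VE-PTP that dephosphorylates the *Tek* product, differed most in this group. It had 197, 254, 371 and 348 CPM in the control mice and 153, 157, 199.9 and 117 CPM in the CSF1 OE mice, and only mouse 1936 reached above the lowest control mouse (log2 fold change -0.90, standard error 0.22, adjusted p = 0.103 from edgeR). *Robo4*, a guidance receptor of endothelium, and *Ramp2*, a partner of the adrenomedullin receptor, had log2 fold changes of -0.65 and -0.69.

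*Eng* encodes endoglin, a co-receptor for TGF-beta family ligands on endothelium that activated macrophages also make. It had 213, 225, 221 and 189 CPM in the control mice and 164, 152, 173 and 153 CPM in the CSF1 OE mice, so that every CSF1 OE mouse was below every control mouse with TMM scaling, but not with scaling to microglia genes. The difference was small in size, and the adjusted p missed the threshold (log2 fold change -0.40, standard error 0.085, adjusted p = 0.0689 from edgeR). Without mice 1934 and 2019 it was -0.42 on the log2 scale. Its SD within genotypes was 0.10 on the log2 scale, the lowest of the 34 genes. Mice 1934 and 2019, which held the highest and the lowest value of most of the other genes, did not do so for *Eng*, in which 1934 was the lowest control mouse.

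The 8 transporters were all lower, 0 were called and 2 had an unadjusted p under 0.05. *Slco1a4*, the organic anion carrier of barrier endothelium, had 74.5, 63.3, 118 and 127 CPM in the control mice and 54.3, 62.9, 72.1 and 31.6 CPM in the CSF1 OE mice, where the groups overlapped by control mouse 1872 (log2 fold change -0.79, standard error 0.29, adjusted p = 0.227 from edgeR). *Abcb1a*, which encodes the efflux pump P-glycoprotein, had a log2 fold change of -0.73, and since it has a close paralog in *Abcb1b* the division of reads between them is uncertain. *Slco1c1*, the thyroxine carrier of endothelium and astrocytes, had one of -0.57. *Slc2a1*, the gene of the glucose carrier GLUT1, had 246, 296, 455 and 376 CPM in the control mice and 314, 183, 266 and 150.2 CPM in the CSF1 OE mice, with mouse 1931 above control mice 1827 and 1872 and mouse 1936 above control mouse 1827 (log2 fold change -0.59, standard error 0.26, adjusted p = 0.304 from edgeR). The monocarboxylate carrier gene *Slc16a1* had a log2 fold change of -0.59. *Mfsd2a*, the carrier of lysophosphatidylcholine with omega-3 chains, had 36.7, 28.3, 52.8 and 83.9 CPM in the control mice and 33.9, 40.8, 58.2 and 12.1 CPM in the CSF1 OE mice, with a range within each genotype far wider than the difference between them (log2 fold change -0.47, standard error 0.46, adjusted p = 0.635 from edgeR). Without mice 1934 and 2019 its log2 fold change was 0.18.

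A pair of transporters stood apart from this picture. *Abcg2*, an efflux pump that stem cells and other cells also use, had 87.3, 90.1, 109 and 102 CPM in the control mice and 89.3, 87.4, 98.8 and 83.6 CPM in the CSF1 OE mice. Its values in all 8 mice were close together, and mouse 2019 was not set apart as it was for *Cldn5* (log2 fold change -0.11, standard error 0.093, adjusted p = 0.574 from edgeR, 95% interval from -0.32 to 0.10). *Slc7a5*, the large neutral amino acid carrier LAT1 that growing cells of many types use, had 165, 137, 231 and 280.4 CPM in the control mice and 205, 213, 251 and 111 CPM in the CSF1 OE mice. Its means hardly differed, but the interval was wide, from -0.70 to 0.57 (log2 fold change -0.062, standard error 0.28, adjusted p = 0.928 from edgeR). Its direction turned when mouse 1874, 1934 or 2019 was left out, which that of no other of the 34 genes did when a single mouse was left out.

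**Figure D2:**
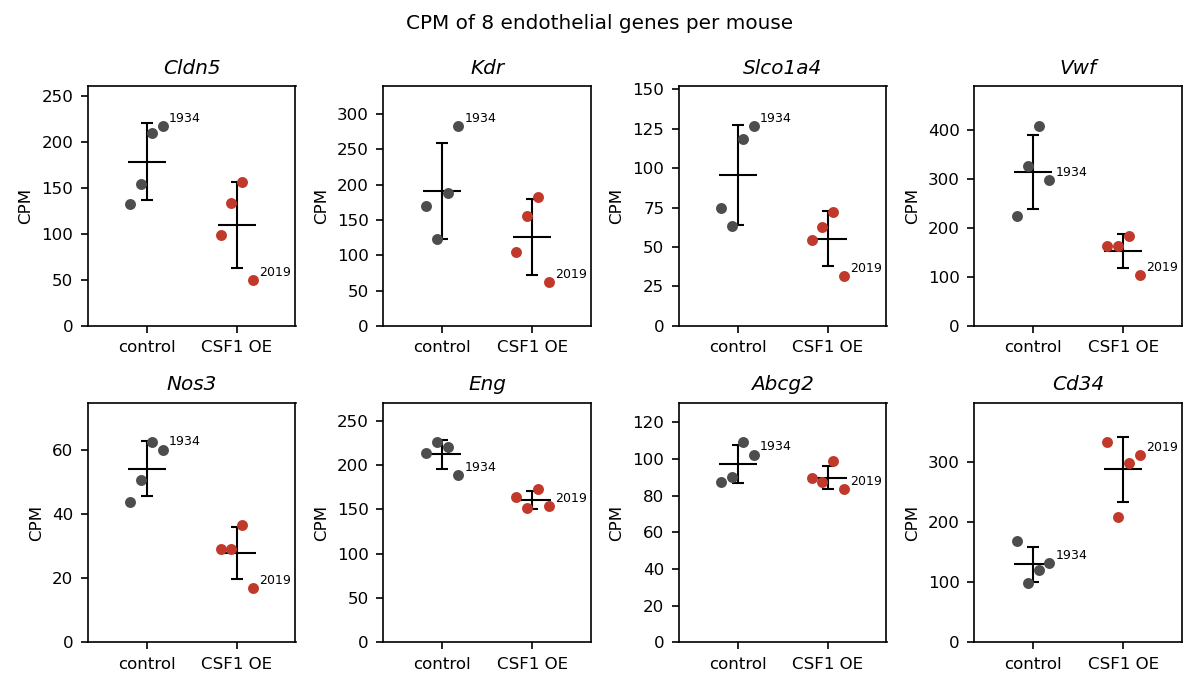
CPM (vertical axes, from 0) of 8 endothelial genes in control (grey) and CSF1 OE mice (red), with 1 point per mouse and the mean ± SD in black, and with mice 1934 and 2019 named. *Vwf*, *Nos3* and *Eng* do not overlap between the genotypes, *Cldn5*, *Kdr* and *Slco1a4* overlap, *Abcg2* is flat at 97.1 and 89.8 CPM, and *Cd34* is higher in each CSF1 OE mouse.

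The 6 transcription factors and Wnt targets were lower as well, with 0 called and 2 at an unadjusted p under 0.05. *Lef1*, which encodes the partner of beta-catenin on DNA, was the least abundant per length, with 8.13, 7.40, 11.1 and 11.8 CPM in the control mice and 4.02, 5.22, 8.79 and 2.83 CPM in the CSF1 OE mice, where mouse 1936 exceeded 2 control mice (log2 fold change -0.87, standard error 0.33, adjusted p = 0.245 from edgeR). *Apcdd1*, a Wnt target that encodes an inhibitor of the pathway and is enriched at the barrier, had 86.9, 70.9, 145 and 225 CPM in the control mice and 86.9, 112, 142 and 32.7 CPM in the CSF1 OE mice, the widest spread within genotypes of the list (log2 fold change -0.49, standard error 0.47, adjusted p = 0.626 from edgeR). Without mice 1934 and 2019 its log2 fold change was 0.18. The SoxF factor gene *Sox17* separated the genotypes by a narrow gap with TMM scaling, with 11.1, 11.9, 13.3 and 16.3 CPM in the control mice and 8.38, 9.18, 10.5 and 3.89 CPM in the CSF1 OE mice (log2 fold change -0.71, standard error 0.28, adjusted p = 0.253 from edgeR). *Sox18*, another SoxF gene, the ETS factor gene *Erg* and the forkhead factor gene *Foxq1* had log2 fold changes of -0.46, -0.57 and -0.58, and their genotypes overlapped.

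In the group of surface and secreted products, 6 of 7 were lower and 1 was higher, 0 of the lower genes and the higher gene *Cd34* were called by edgeR, and 3 lower genes had an unadjusted p under 0.05. *Vwf*, at chr6:125546774-125686679, encodes von Willebrand factor, a clotting protein that endothelium stores and that is richer in larger vessels than in capillaries. It had 224, 327, 409 and 298 CPM in the control mice and 164, 162, 183 and 104 CPM in the CSF1 OE mice. With TMM scaling, but not with scaling to microglia genes, every CSF1 OE mouse lay below every control mouse for *Vwf* and *Nos3*. For *Vwf* the log2 fold change was the lowest of the list, and the adjusted p stayed above the threshold (log2 fold change -1.03, standard error 0.21, adjusted p = 0.0642 from edgeR). *Nos3*, the endothelial nitric oxide synthase that relaxes vessels, had 43.6, 50.6, 62.2 and 60.0 CPM in the control mice and 29.2, 29.2, 36.5 and 16.9 CPM in the CSF1 OE mice and separated likewise (log2 fold change -0.95, standard error 0.22, adjusted p = 0.0842 from edgeR). Without mice 1934 and 2019 the log2 fold changes of *Vwf* and *Nos3* were -0.91 and -0.71, and neither was called. *Ly6c1*, a surface protein of brain capillaries, had 47.9, 56.4, 83.0 and 72.6 CPM in the control mice and 39.6, 33.8, 47.7 and 22.3 CPM in the CSF1 OE mice (log2 fold change -0.86, standard error 0.24, adjusted p = 0.142 from edgeR). Its near copy *Ly6c2*, a gene of monocytes, had 1.94 ± 0.433 CPM over the control mice against 1.09 ± 0.545 CPM over the CSF1 OE mice, and how reads were divided between them is uncertain. For *Ly6c1* the genotypes separated only by a very narrow gap, with 47.7 CPM in CSF1 OE mouse 1936 against 47.9 CPM in control mouse 1827. They overlapped with scaling to microglia genes, total counts alone, upper-quartile factors or a filter of at least 10 counts in every library. *Egfl7*, a secreted factor of vessel growth, *Emcn*, a sialomucin of capillaries and veins, and *Itm2a*, a membrane protein enriched at the barrier, had log2 fold changes of -0.63, -0.69 and -0.62 with overlapping genotypes.

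*Cd34*, at chr1:194938819-194961279, encodes a sialomucin of endothelium and of blood progenitor cells. It went against the other 33 genes, with 168, 98.2, 120.3 and 132 CPM in the control mice and 332, 208, 297 and 312 CPM in the CSF1 OE mice. All CSF1 OE mice were above all control mice, by a fold of 2.21 between the genotypes, and the gene was called with an adjusted p just under the threshold (log2 fold change 1.15, standard error 0.19, adjusted p = 0.0492 from edgeR). CSF1 OE mouse 2019, with the lowest level of most endothelial genes, had the second highest *Cd34*. Control mouse 1934, with the highest level of most endothelial genes, lay between the other control mice for *Cd34*. Without any 1 mouse its log2 fold change stayed between 1.03 and 1.30, but it was called in only 2 of these 8 fits (adjusted p from 0.0333 to 0.183 from edgeR). These were the fits that left out control mouse 1827 and CSF1 OE mouse 1932. Without mice 1934 and 2019 it was 1.12 (edgeR, adjusted p = 0.0601).

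**Figure D3:**
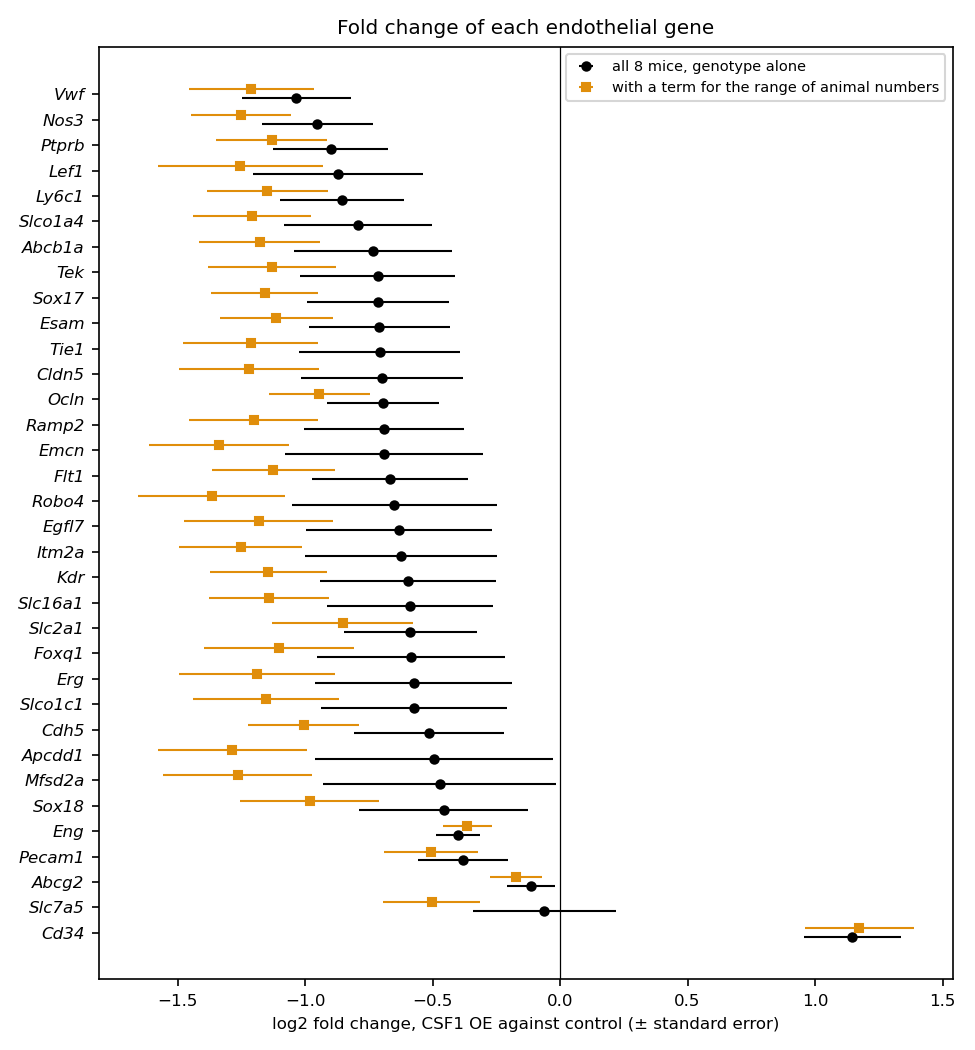
Log2 fold change of CSF1 OE against control (horizontal axis, with standard error bars, n = 4 mice each) for each of the 34 genes (vertical axis), from edgeR on genotype alone (black) and in a fit that also held the range of animal numbers (orange). Black points run from -1.03 for *Vwf* to 1.15 for *Cd34*, and orange points lie further to the left for all genes but *Eng*, which is at -0.36, and *Cd34*, which is at 1.17.

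Measured per kilobase of exon, joined over all annotated transcripts of a gene, *Cldn5* was the most abundant of the 34 in control mice at 126 CPM per kilobase. *Slc2a1* (97.9), *Slc16a1* (89.1) and *Itm2a* (88.9 CPM per kilobase) followed. At the other end were *Lef1* (1.09), *Foxq1* (2.25), *Emcn* (2.55) and *Sox17* (2.75 CPM per kilobase). In CSF1 OE mice *Cldn5* was again the first at 77.4 CPM per kilobase. Such joined lengths can exceed that of the RNA present, so levels can be compared between genes only roughly.

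To see which genes departed from the common movement, the median of the 34 genes in each library was subtracted from each gene's log2 CPM relative to its own mean. On this relative scale 26 of the 34 genes differed between the genotypes by less than 0.25, and the genotypes did not overlap in 2. These were *Cd34*, higher by 1.84 in CSF1 OE mice, and *Slc7a5*, higher by 0.62. Relative values of *Slc7a5* were -0.15, -0.51, -0.35 and -0.22 in the control and 0.45, 0.24, 0.15 and 0.41 in the CSF1 OE mice. So relative to the median endothelial gene this carrier was higher in every CSF1 OE mouse, although its CPM overlapped. The subtracted median was itself lower in CSF1 OE mice, so a gene with unchanged CPM comes out higher on this scale. *Abcg2* was likewise higher by 0.58, and *Eng* and *Pecam1* by 0.29 each, with overlap. The relative differences of *Vwf* (-0.34), *Nos3* (-0.30) and *Lef1* (-0.26) were the lowest and overlapped. These differences use the list as its own reference and are given with no test.

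**Figure D4:**
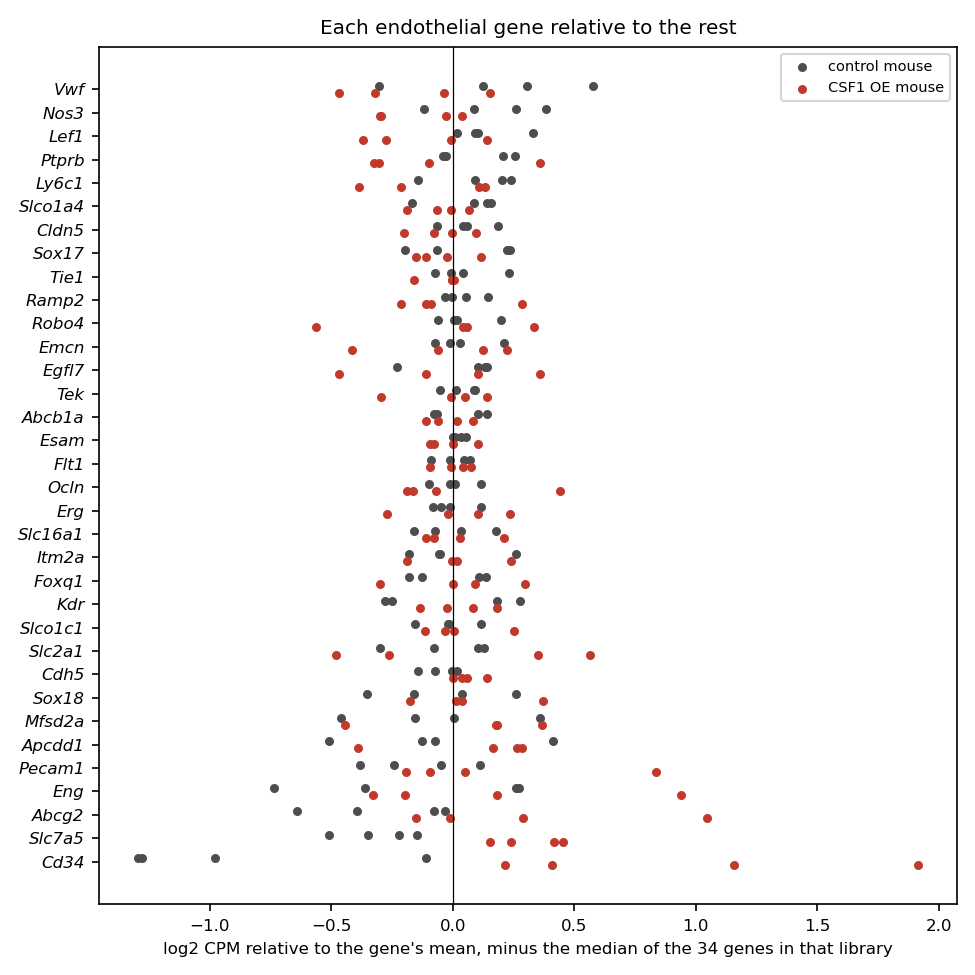
Log2 CPM of each gene relative to its mean over 8 mice, minus the median of the 34 genes in the same library (horizontal axis), for each gene (vertical axis), with 1 point per control (grey) and CSF1 OE (red) mouse. Most genes lie around 0 in both genotypes, while *Cd34* and *Slc7a5* at the bottom have all red points to the right of all grey points.

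Markers of mural cells, oligodendrocytes and astrocytes varied with the endothelial genes from mouse to mouse, and those of neurons did so only in part. The 16 mural cell genes, of pericytes and smooth muscle, summed to 243, 212, 426 and 443 CPM in the control and 282, 273, 376 and 197 CPM in the CSF1 OE mice. In the same order, the 11 oligodendrocyte genes summed to 3216, 3147, 4849 and 6594 CPM in the control and 3097, 3885, 5298 and 1719 CPM in the CSF1 OE mice and the 13 astrocyte genes to 478, 594, 801 and 918 CPM in the control and 521, 550.1, 909 and 380.2 CPM in the CSF1 OE mice. In these 3 lists control mouse 1934 had the highest control sum, CSF1 OE mouse 1936 the highest and mouse 2019 the lowest CSF1 OE sum, as in the endothelial list. The neuron genes summed to 123, 181, 107 and 415 CPM in the control and 99.5, 257, 145 and 53.4 CPM in the CSF1 OE mice. There mice 1934 and 2019 were again highest and lowest, but mouse 1874 was the lowest control and mouse 1932 the highest CSF1 OE mouse. A mean z score of 61 mural, astrocyte, oligodendrocyte lineage and neuron genes, with no endothelial gene in it, was -0.40, -0.31, 0.45 and 1.23 in the control and -0.32, 0.13, 0.69 and -1.47 in the CSF1 OE mice. Within each genotype it ranked the 4 mice in the same order as the median of the endothelial genes did. The homeostatic microglia genes had their lowest sum in mouse 1934 and their highest in mouse 2019, with 50219, 50508, 44731 and 28766 CPM in the control and 43678, 37424, 37413 and 53049 CPM in the CSF1 OE mice. As CPM are shares of 1 library, these sums are not independent of each other, and the part of other cells in the endothelial difference was not tested by them.

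**Figure D5:**
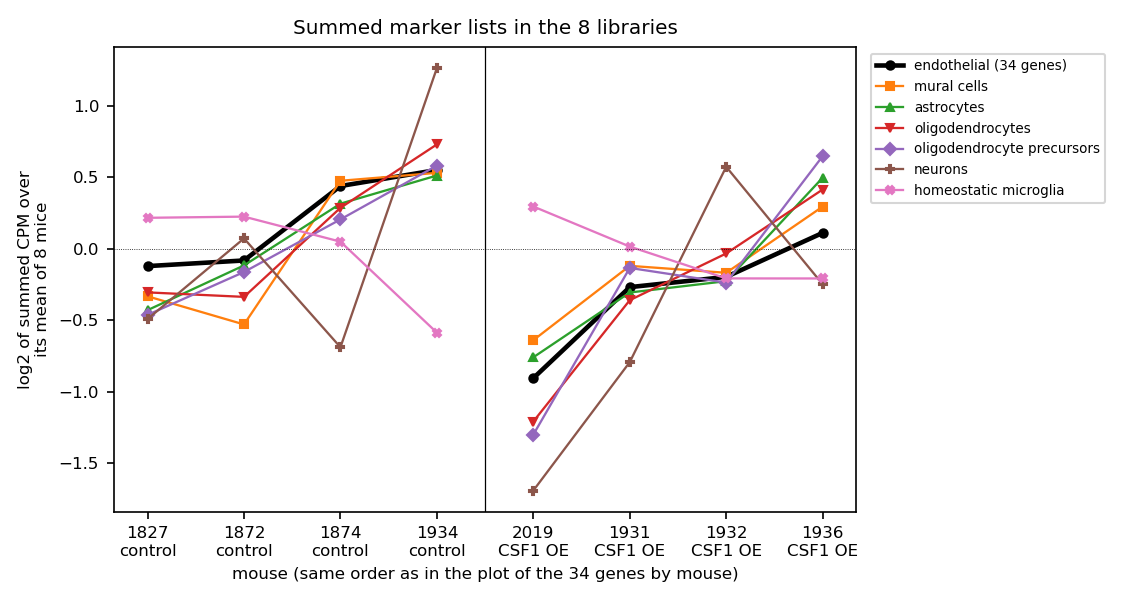
Log2 of the summed CPM of 7 marker lists over the list's mean of the 8 mice (vertical axis) for each mouse (horizontal axis, same order of mice as in the plot of the 34 genes). The endothelial, mural, astrocyte and oligodendrocyte lines rise together towards mice 1934 and 1936, and the line of homeostatic microglia runs from its lowest point in mouse 1934 to its highest in mouse 2019. The neuron line has its lowest control point in mouse 1874 and its highest CSF1 OE point in mouse 1932.

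Markers of other cells were also lower in CSF1 OE mice for the most part. Over 12 lists of markers of other cell types, 125 genes were tested and 95 were lower in CSF1 OE mice, with a median log2 fold change of -0.31. With edgeR 0 of them were called, where 0.440% of all genes were. At an unadjusted p under 0.05, 11 were lower, where 6.44% of all genes were, and 3 were higher, where 10.1% were. DESeq2 called 4 lower, where 0.939% of all were, and 1 higher, where 1.60% were. The medians were -0.24 for mural cells, -0.28 for vascular fibroblasts, -0.36 for astrocytes, -0.47 for oligodendrocytes and -0.43 for neurons. They were -0.14 for oligodendrocyte precursors, -0.48 for choroid plexus and ependyma and -1.58 for red blood cells. Among cells of the myeloid line the medians were 0.042 for homeostatic microglia, -0.47 for border macrophages, -0.25 for monocytes and 0.26 for neutrophils. Of the border macrophage genes, 11 of 12 were lower and 8 of these had an unadjusted p under 0.05, a larger share than in any other of the 12 lists. Red blood cell genes varied widely, with a sum over mice of 252 to 936 CPM for control against 39.0 to 435 CPM for CSF1 OE mice. Genes of the vessel wall were detected. *Rgs5* of pericytes was at 123 ± 51.6 CPM over the control mice against 107 ± 29.4 CPM over the CSF1 OE mice (log2 fold change -0.20, standard error 0.31, adjusted p = 0.765 from edgeR). *Pdgfrb* was at 25.2 ± 6.84 CPM over the control mice against 23.8 ± 5.98 CPM over the CSF1 OE mice. This pair was chosen after values were seen and does not stand for the mural list, in which 12 of 15 genes tested were lower.

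The lists held a span of log2 fold changes, given here by the lowest and highest gene of each but the neuron list. In the mural list these were *Ndufa4l2* (-0.74) and *Anpep* (0.50), which encodes a peptidase. For the other vascular and glial lists the pairs were *Lama1* (-0.62) and *Pdgfra* (0.33) in fibroblasts, *Ntsr2* (-0.65) and the filament gene *Gfap* (0.88) in astrocytes, and *Opalin* (-0.82) and the myelin gene *Mbp* (0.19) in oligodendrocytes. Precursors had *Sox10* (-0.46) and *Pdgfra*, and choroid plexus and ependyma *Kcnj13* (-0.74) and *Clic6* (-0.30), where both were lower. Red blood cells had *Hba-a1* (-1.63) and *Alas2* (-1.46), again both lower. In the myeloid lists they were *Cd209a* (-2.87) and *Siglec1* (0.49) for border macrophages, *Ly6c2* (-0.84) and *Plac8* (1.70) for monocytes, *Retnlg* (-0.30) and *S100a8* (0.36) for neutrophils, and *Fcrls* (-0.63) and *Siglech* (0.23) for microglia. With edgeR 0 of these genes were called. Every gene of the 18 lists that was found in the files had counts, and 13 were too low to be tested.

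Genes that work beside the 34 in vascular pathways were mostly lower too. Over 6 lists of such genes 118 were tested, 105 were lower, where 55.2% of all genes were, and the median log2 fold change was -0.48. With edgeR 3 were called lower, where 0.0522% of all genes were, and 0 higher. At an unadjusted p under 0.05, 36 were lower, where 6.44% of all genes were, and 0 higher. DESeq2 called 13 lower, where 0.939% were. The genotypes did not overlap in 14 of them, all lower, where 3.45% of all genes separated in this direction.

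The called genes were all of signalling. *Tmem204*, which encodes a membrane protein of endothelial contacts, had 66.6, 70.8, 60.2 and 54.9 CPM in the control mice and 29.6, 30.6, 38.6 and 30.6 CPM in the CSF1 OE mice (log2 fold change -0.96, standard error 0.12, adjusted p = 0.0271 from edgeR). *Ackr3*, a scavenging receptor for the chemokine CXCL12, had 30.4, 31.8, 30.6 and 27.6 CPM in the control mice and 13.1, 18.1, 16.8 and 13.3 CPM in the CSF1 OE mice (log2 fold change -0.97, standard error 0.13, adjusted p = 0.0365 from edgeR). *Jag1*, a Notch ligand, had 22.0, 36.2, 32.6 and 28.6 CPM in the control mice and 12.5, 15.3, 17.0 and 15.4 CPM in the CSF1 OE mice (log2 fold change -0.99, standard error 0.17, adjusted p = 0.0499 from edgeR). In each of the 3 every CSF1 OE mouse was below every control mouse, and mouse 2019 was not set apart from the other CSF1 OE mice as it was for *Cldn5*. For *Tmem204* and *Ackr3*, mouse 1934 was the lowest control mouse, whereas it was the highest for most of the endothelial genes. Which cells of the eluate made these RNAs was not tested.

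Of the 14 Notch pathway genes of endothelium, 13 were lower (median log2 fold change -0.58), and the genotypes did not overlap in 4, all lower, where 3.45% of all genes separated so. The lowest log2 fold change was that of *Gja5*, which encodes connexin 40 of arterial endothelium, with 11.4, 25.8, 29.4 and 12.8 CPM in the control mice and 6.16, 8.16, 10.02 and 7.61 CPM in the CSF1 OE mice (log2 fold change -1.31, standard error 0.33, adjusted p = 0.103 from edgeR), and the only gene higher was the target *Hes1* (0.11). Among 26 signalling ligands and partners 24 were lower (median -0.53), from *Sema3g*, a semaphorin of arteries, at -1.09 to *Angpt1*, the ligand of the *Tek* product, at 0.17. The 24 other barrier transporters had 22 lower (median -0.50), from the riboflavin carrier gene *Slc52a3* (-0.97) to *Plvap* (0.27), which marks leaky endothelium without a barrier.

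For the 19 other endothelial transcription factors 19 were lower (median -0.40), from *Gata2* (-0.92) to *Lmo2* (-0.033), a gene that blood cells share. The Wnt and beta-catenin genes had a smaller median, with 16 of 21 lower (median -0.26), from the effector gene *Tcf7* (-1.02) to *Znrf3* (0.31), a feedback inhibitor. Of the 14 other junction genes 11 were lower (median -0.22), from *Lsr*, which encodes angulin-1 of tricellular contacts, at -0.67 to *F11r*, which encodes JAM-A of endothelium and leukocytes, at 0.17.

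The animal numbers were split into a range from 1931 to 1936, with 1 control and 3 CSF1 OE mice, and all other numbers. The others were 3 control mice (1827, 1872 and 1874) and 1 CSF1 OE mouse (2019). They lie on both sides of the range and do not form a range of their own. The labels do not say whether either set marks a litter or a day. Within the range from 1931 to 1936, all 3 CSF1 OE mice were below control mouse 1934 in 33 of the 34 genes, where 33.7% of all genes tested did the same, and all were above it in *Cd34*. Among the other numbers, CSF1 OE mouse 2019 was below all 3 control mice in 33 of the 34 genes, where 36.5% of all genes did, and above them in *Cd34*. The median difference of the 34 genes was -0.88 on the log2 scale in the range from 1931 to 1936 and -1.44 among the other numbers. When the range was added to the edgeR fit, 28 of the 34 were called lower, where 7.24% of all genes were, and *Cd34* was called higher, where 2.25% were. For *Cldn5* this fit gave -1.22 (standard error 0.28, adjusted p = 0.0310) and for *Cd34* 1.17 (standard error 0.21, adjusted p = 0.0259), as log2 fold changes. *Pecam1*, *Slc2a1*, *Abcg2* and *Slc7a5* were not called in it, nor was *Eng*, whose adjusted p was 0.0429 from edgeR at a fold change inside the threshold.

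That fit compares mouse 1934 with 3 CSF1 OE mice and mouse 2019 with 3 control mice, and these 2 mice also held the highest and the lowest score of other cell types. With the score of other cell types as a covariate in place of the range, 5 of the 34 were called lower, where 1.21% of all genes were, and *Cd34* higher, where 1.35% were. The 5 were *Vwf* (log2 fold change -0.92), *Nos3* (-0.80), *Ptprb* (-0.71), *Ly6c1* (-0.67) and *Slco1a4* (-0.53). *Esam*, *Ocln*, *Eng*, *Abcb1a* and *Tek* were lower with adjusted p from 0.0303 to 0.0433 from edgeR, at fold changes inside the threshold. For *Cldn5* this fit gave -0.48 with a standard error of 0.13, and the gene was not called (edgeR, adjusted p = 0.0661). The median of the 34 genes was -0.39 with the score and -1.15 with the range, so its direction was shared and its size depended on the covariate.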

How the data were processed

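RNA of CD11b+ cells of 4 control and 4 CSF1 OE mice was sequenced with paired reads. The deposited values are expected counts per gene symbol, which the authors made by mapping reads with Bowtie 1.0.0 and estimating with RSEM 1.2.7; the submitters' processing notes name the build mm10, and the annotation and strand setting are not given in the sources used here. Between 20.8% and 26.5% of a library's expected counts were not exactly whole, and they were rounded. The authors also deposited a normalized table (unit signal), which holds the authors' expected counts divided by 1 factor per mouse (checked over genes with at least 100 counts, all within 1% of it) and was used in 1 alternative.

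The test was edgeR's quasi-likelihood test in R 4.3.3, with edgeR 4.0.16 (filterByExpr, TMM, glmQLFit, glmQLFTest) with Benjamini-Hochberg adjustment. Log2 CPM used a prior count of 2. The paper's tool, EBSeq, was not run. A floor of 3 counts was 0.177 to 0.266 CPM and covers counting error only. Standard errors came from the quasi-likelihood F statistic. Positions and exon lengths are those of GENCODE M21 on GRCm38. Alternatives used DESeq2 1.42.0, limma 3.58.1 (log2 of the normalized values with a pseudocount of 1), other scalings and filters, 2 covariates and each mouse left out. The edgeR test was also run on simulated counts of 13324 genes, in which 200 genes differed 2-fold. It recovered 61.5% of these 200 genes. Of the genes it called, 8.21% were false, a share above the threshold set for the adjusted p.

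The members and lists were chosen with earlier results of these data known, so no list was tested as such. Named were all members, the highest and lowest and every called gene of each list, and *Csf1*; the pair of the neuron list is not reported here. *Itgam*, *Rgs5* and *Pdgfrb* were added after values were seen. Of the list symbols 6 were matched by a RefSeq synonym and *Meg3* by none. The replicates are separate mice.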

Additional observations from a re-analysis of the deposited data

How the results depend on the processing

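The number of genes called was 427 with DESeq2, 104 with limma on the authors' normalized values, 19 with upper-quartile factors, 9 with total counts alone, 343 with the score of other cell types, 1273 with the range of animal numbers and 0 with libraries scaled to homeostatic microglia genes (edgeR, 622 at an unadjusted p under 0.05), against 59 as reported. Of the calls, 7 of 59 were lower in CSF1 OE mice as reported, 2 of 9 with total counts alone and 158 of 427 with DESeq2. In the same settings 5, 1, 0, 0, 6, 29 and 0 endothelial genes were called, and 0 with a robust prior, against 1 as reported. Where 0 were called, between 4 and 13 had an unadjusted p under 0.05 and were lower, beside 622 to 2206 of all 13407 genes in either direction. Without 1 mouse, 3 to 164 genes and 0 to 2 endothelial genes were called, and 6 to 15 endothelial genes did not overlap. Over all genes, 4.09% to 7.11% separated lower and 7.68% to 12.1% higher in these fits. The 164 belong to the fit without control mouse 1827, which also called *Vwf* (log2 fold change -1.17, adjusted p = 0.0447 from edgeR). Fits without control mouse 1872 or 1874 called 3 genes, without CSF1 OE mouse 1931 4, without 1936 8, without control mouse 1934 10 and without CSF1 OE mouse 1932 18. The 15 belong to the fit without CSF1 OE mouse 1936, where 6.14% of all genes separated lower and 8.38% higher. Fewer mice leave fewer chances to overlap. Scaled to homeostatic microglia genes, 1 endothelial gene (*Cd34*) did not overlap, against 6 as reported and 4 with total counts alone. With total counts alone 5.73% of all genes separated lower and 4.23% higher. The median of the 34 genes was -1.15 with the range of animal numbers and between -0.41 (without CSF1 OE mouse 2019) and -0.86 (without CSF1 OE mouse 1936) with a mouse left out, and 32 or 33 of the 34 genes were lower in each of these fits. Leaving out mice 1934 and 2019 together, chosen after seeing the data, called 166 genes, of which 62 were lower, and 0 endothelial genes (edgeR), and turned *Slc7a5* (0.33), *Mfsd2a* (0.18) and *Apcdd1* (0.18) to higher values, for a median of -0.27. *Slc7a5* turned higher with the score of other cell types (0.20) and without control mouse 1874 (0.0042), control mouse 1934 (0.14) or CSF1 OE mouse 2019 (0.13), and without any 1 mouse it ran from -0.21 to 0.14. *Cd34* was not called with upper-quartile factors, total counts alone, scaling to microglia genes or a robust prior (adjusted p from 0.0530 to 0.262 from edgeR), and it was higher in all of them. The cause of these changes was not tested. No paired analysis was possible because each library is a separate mouse and the labels give no litter or day to pair by. Depth did not limit detection, since the lowest endothelial count was 32.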
